A study of Mus musculus with 39 samples.

Results

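Fatty acid oxidation and ketone body genes were followed in the livers of mice with and without CD163, the macrophage receptor for haemoglobin-haptoglobin complexes, on chow or on a Western diet. The set held 36 genes of 55416 in the count table: the nuclear receptor Ppara, the enzymes and carriers of mitochondrial and peroxisomal beta-oxidation, and the ketone body enzymes Acat1 and Bdh1. They were chosen by symbol as a pathway list. The rule uses no measured value, but earlier results of these data were known when the genes were chosen. All 36 were among the 15296 genes that passed the filter on low counts. The study compared male CD163 knockout mice with their wildtype littermates, bred from heterozygous parents that carried the allele CD163tm1(KOMP)Vlcg on the C57BL/6NTac strain. Feeding began at 6 weeks of age and lasted 8 weeks. The 30 Western diet libraries (15 of each genotype) came from mice that drank water with fructose. The 9 chow libraries (5 wildtype and 4 knockout) came from mice that drank normal water, so that diet and fructose cannot be told apart. RNA came from snap-frozen liver tissue, in which fewer cells of a type and less RNA per cell cannot be told apart.

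Beta-oxidation shortens fatty acids by removing acetyl-CoA in repeated cycles of dehydrogenation, hydration, a second dehydrogenation and thiolysis. In hepatocytes long-chain fatty acids are activated by acyl-CoA synthetases and enter mitochondria as carnitine esters, whereas very long and branched chains and bile acid precursors are first shortened in peroxisomes. Surplus acetyl-CoA in fasting liver is turned into ketone bodies. PPARA, a nuclear receptor activated by fatty acids, induces many of these genes in mouse liver, by binding with RXR to a direct repeat of a hormone response element.

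The libraries held 8578865 to 30438808 counted reads in genes (median 14573193). Cd163 read 4.95 to 13 CPM (read counts scaled to 1 common library size) in wildtype chow, 2.59 to 15.8 CPM in wildtype Western diet, 0.44 to 0.746 CPM in knockout chow and 0 to 0.661 CPM in knockout Western diet livers, so that the genotypes did not overlap. All 10 hepatocyte markers were detected, with summed levels of 48031 to 87364 CPM. The summed Kupffer cell markers ranged from 121 to 694 CPM, neutrophil markers from 1.64 to 40.0 CPM, stellate cell markers from 327 to 1037 CPM and sinusoidal endothelial markers from 228 to 615 CPM. Erythroid markers summed to 103 to 117 CPM in wildtype chow and 103 to 250.5 CPM in wildtype Western diet livers, and to 78.7 to 108 and 96.0 to 233 CPM in the knockout. White fat markers summed to 15.1 to 183 CPM and pancreas markers to 13.1 to 60.6 CPM. The part of these lists in the diet comparisons was not tested.

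The levels of 4 libraries contradicted their diet label. The mean of 20 sterol synthesis genes, which dietary cholesterol represses, lay between 6.62 and 7.21 log2 CPM in 7 chow libraries. Wildtype chow A, at 5.28, and knockout chow D, at 5.27, were lower. Of the Western diet libraries 28 lay between 4.67 and 6.23, and wildtype A, at 7.14, and knockout M, at 7.19, were higher. Wildtype Western diet C, at 6.23, lay between the diets and also past the midpoint. On a second scale, made from 207 genes called between the diets in wildtype mice (chow mean 0, Western diet mean 1, no member or sterol gene among them), wildtype Western diet C read 1.22 and stayed with its label, whereas wildtype chow A read 0.52, just past the midpoint of 0.5, knockout chow D 0.94, wildtype Western diet A 0.19 and knockout Western diet M 0.01. All libraries stay under their labels in the values given first, and each result on the diet is then given without these 4. That choice rests on diet-responsive genes of the same libraries and the second scale was added after the sterol level alone had taken 5 libraries, so p-values without the 4 libraries are not independent evidence; the counts of called members are also given without all 5.

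Per kilobase of transcript, the highest in wildtype chow livers were Scp2, which encodes the peroxisomal thiolase SCPx and a sterol carrier protein, at 1041 CPM per kb, the peroxisomal thiolase Acaa1b at 953 and the mitochondrial thiolase Acaa2 at 738 CPM per kb. The same 3 genes led in each of the 4 groups, with Acaa1b first in the other 3. The lowest were the plasma membrane carnitine transporter Slc22a5 at 4.61, the carnitine acetyltransferase Crat at 12 and Ppara at 15.2 CPM per kb. Between livers of one group, the largest standard deviations of log2 CPM were those of Acaa1b (0.57), Crat (0.53) and the peroxisomal bifunctional enzyme Ehhadh (0.52), and the smallest those of Acaa2 (0.14), the electron transfer flavoprotein subunit Etfa (0.16) and the inner membrane carnitine palmitoyltransferase Cpt2 (0.17). The median over all genes tested was 0.31, and 21 of the 36 members lay below it.

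**Figure D1:**
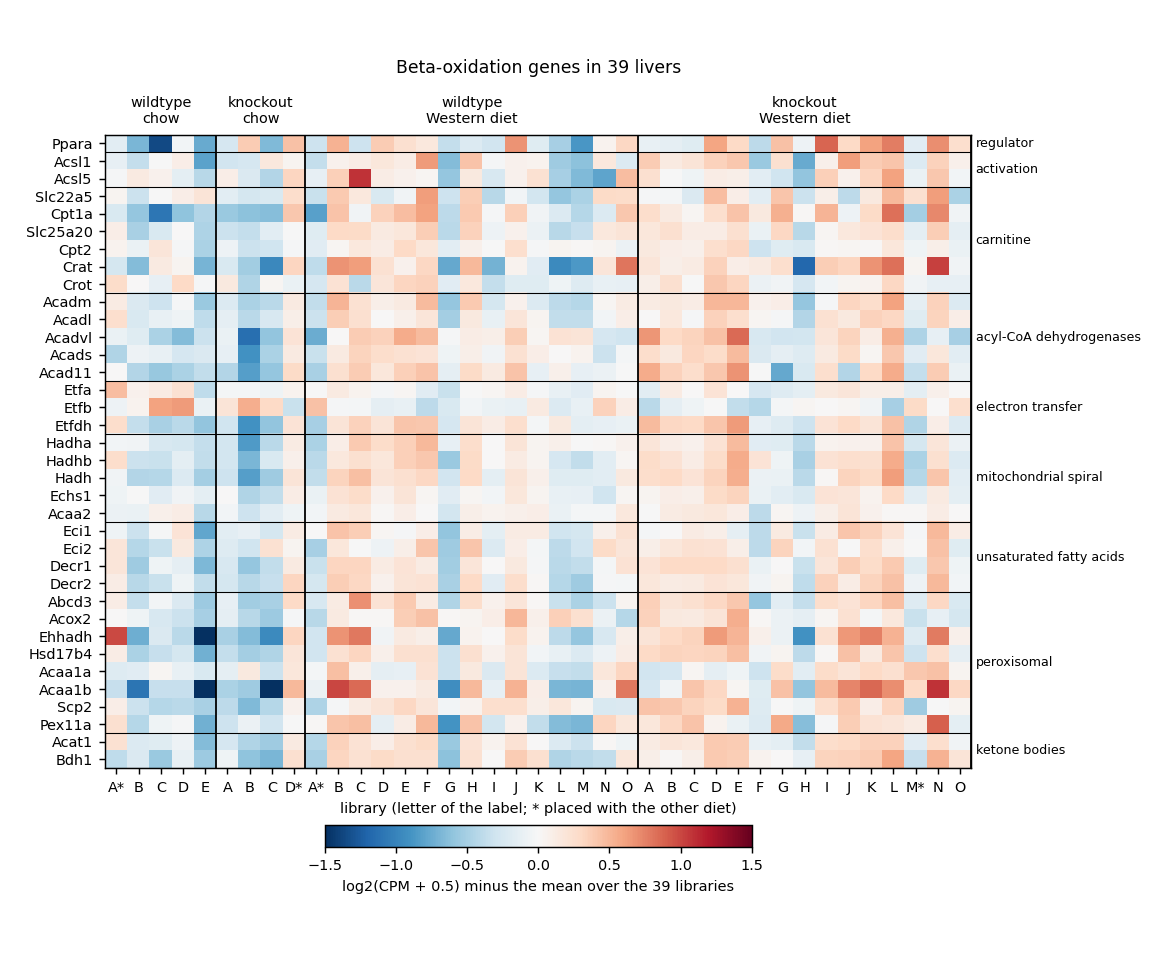
Level of each of the 36 genes (rows, by role) in each of the 39 livers (columns, by group), as log2(CPM + 0.5) minus the mean of the gene over all livers; red is above and blue below that mean, and asterisks mark the 4 libraries that lay with the other diet. Acaa1b, Crat and Ehhadh vary most from liver to liver and Acaa2, Etfa and Cpt2 least.

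Promoter windows from RefSeq (GRCm38.p6, 250 bases before to 50 after the start) matched 31 members, with 35 windows. Hadha and Hadhb, which encode the alpha and beta subunits of the mitochondrial trifunctional protein, start head to head, and their windows share 228 bases. The Hadhb window (chr5:30155003-30155302, plus strand) is shown with the shared bases in capitals. Acaa1a and Acaa1b encode close peroxisomal 3-ketoacyl-CoA thiolases from genes on the same chromosome. Their coding sequences of 1272 bases were 96.5% identical in GENCODE M21, and 21.6% of the 100-base windows of the Acaa1a transcript also occurred in Acaa1b. Read pairs that lie wholly in such shared stretches cannot be assigned to one of them, and both counts are uncertain for that reason. The share of such read pairs was not measured. Their promoter windows (Acaa1a chr9:119341044-119341343, plus strand; Acaa1b chr9:119157044-119157343, minus strand) were 47.3% identical in a global alignment and are shown because the levels of the pair varied unequally. Slc25a20, the carnitine-acylcarnitine carrier of the inner mitochondrial membrane, is shown (chr9:108661886-108662185, plus strand) with its match to the direct repeat in capitals.
Hadhb: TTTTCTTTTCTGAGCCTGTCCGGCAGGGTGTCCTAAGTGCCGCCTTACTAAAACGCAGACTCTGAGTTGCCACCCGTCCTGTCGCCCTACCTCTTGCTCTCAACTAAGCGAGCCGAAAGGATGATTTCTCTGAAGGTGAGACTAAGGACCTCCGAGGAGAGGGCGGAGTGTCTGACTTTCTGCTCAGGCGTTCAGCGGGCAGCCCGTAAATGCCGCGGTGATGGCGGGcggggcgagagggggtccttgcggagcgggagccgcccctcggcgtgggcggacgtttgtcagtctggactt
Acaa1a: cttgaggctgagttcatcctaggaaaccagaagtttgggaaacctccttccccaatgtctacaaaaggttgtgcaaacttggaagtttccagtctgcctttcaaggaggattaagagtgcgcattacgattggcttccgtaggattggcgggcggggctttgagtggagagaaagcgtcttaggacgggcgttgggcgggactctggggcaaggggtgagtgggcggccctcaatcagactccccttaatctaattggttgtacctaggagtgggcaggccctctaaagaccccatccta
Acaa1b: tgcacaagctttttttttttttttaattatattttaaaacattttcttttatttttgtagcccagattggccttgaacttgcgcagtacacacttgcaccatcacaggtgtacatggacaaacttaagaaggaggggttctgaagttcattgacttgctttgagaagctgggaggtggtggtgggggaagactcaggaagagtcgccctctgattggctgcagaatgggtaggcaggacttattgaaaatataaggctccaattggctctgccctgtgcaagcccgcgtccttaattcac
Slc25a20: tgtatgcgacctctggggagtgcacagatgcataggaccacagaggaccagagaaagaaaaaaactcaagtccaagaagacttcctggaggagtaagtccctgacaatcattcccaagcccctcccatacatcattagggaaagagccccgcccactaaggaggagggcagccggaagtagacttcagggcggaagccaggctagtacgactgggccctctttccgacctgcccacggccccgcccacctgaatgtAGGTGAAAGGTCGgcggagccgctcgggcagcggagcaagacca

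The direct repeat searched was AGGTCANAGGTCA on both strands with up to 2 mismatches in its 12 fixed letters. Its exact form contains the hexamer AGGTCA, so the counts of the motifs can overlap, but a match with mismatches need not hold the hexamer. The direct repeat matched 4 of 35 member windows (Acox2, Echs1, Etfa and Slc25a20, each with 2 mismatches), or 11.4%, against 3.86% of all 32851 windows. Of these member windows only that of Echs1 also held the exact hexamer. The exact hexamer was in 5 member windows (14.3%) and in 16.3% of all windows. These matches describe letters in a short window and carry no test.

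In wildtype mice, no member passed the threshold between Western diet and chow when all libraries kept their labels (edgeR quasi-likelihood test, adjusted p under 0.05 over all genes; 0.771% of all genes were called higher and 0.615% lower). Of the 36 members, 32 had a positive log2 fold change, with a median of 0.21 against -0.0032 over all genes, and 15 had an unadjusted p under 0.05 (41.7%, against 17.2% of all genes). DESeq2 called 2 members, beside 518 of 14490 genes, and limma voom with sample weights 8, beside 1045 of 15296 genes. All these members were higher, and the 2 of DESeq2 are near its share of all genes. Without the 4 libraries, 9 members were called higher and 1 lower, beside 4.26% and 4.4% of all genes. Without all 5 the counts were 7 and 1, beside 1140 of 15415 genes called in either direction. Single libraries moved the count from 0 to 2 (without wildtype chow A) and to 1 (without wildtype Western diet A or without knockout chow D). The calls over all genes in those fits are not given here.

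Cpt1a, the outer membrane carnitine palmitoyltransferase that controls entry of fatty acids into mitochondria, had the smallest p. It read 232, 181, 128, 178 and 199.5 CPM in wildtype chow A to E and 155 to 413.6 CPM (median 269) in the 15 wildtype Western diet livers. The lowest Western diet value, 155 CPM, and the highest chow value, 232 CPM, were those of 2 of the 4 libraries, and without these the ranges did not overlap. Its log2 fold change (given ± SE here and below) was 0.67 ± 0.20, adjusted p = 0.0702 as labelled and 0.82 ± 0.17, adjusted p = 0.00239 without the 4 libraries; 14 of 15 Western diet livers lay above the chow mean. DESeq2 and limma voom called it as labelled.

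Of the other carnitine genes, the log2 fold change was 0.25 ± 0.12, adjusted p = 0.279 for Slc25a20, 0.33 ± 0.26 for Crat, 0.11 ± 0.090 for Cpt2, -0.13 ± 0.11 for the peroxisomal carnitine octanoyltransferase Crot and -0.0088 ± 0.17 for Slc22a5. The acyl-CoA synthetases Acsl1 and Acsl5 had 0.21 ± 0.18 and 0.12 ± 0.19. None of these 7 passed in either fit. Ppara read 67.2, 46.5, 28.9, 72.8 and 44.2 CPM in wildtype chow and 40.7 to 120.2 CPM (median 65.8) in wildtype Western diet livers, with a log2 fold change of 0.54 ± 0.23, adjusted p = 0.207; without the 4 libraries it was 0.67 ± 0.25, adjusted p = 0.0884, and the groups overlapped in both.

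Among the acyl-CoA dehydrogenases, Acad11 read 241, 177, 162, 172 and 185 CPM in chow and 171 to 323 CPM (median 263) in Western diet livers, a log2 fold change of 0.48 ± 0.18, adjusted p = 0.148. Without the 4 libraries its groups no longer overlapped and it was called higher (0.62 ± 0.17, adjusted p = 0.017). Acadvl, Acadl, Acadm and Acads, the very long-chain, long-chain, medium-chain and short-chain enzymes, carry out the first step of each mitochondrial cycle. They had log2 fold changes of 0.46, 0.089, 0.20 and 0.28 and passed in neither fit. In GENCODE M21, 42.9% of the exonic bases of Acadvl lie over the opposite-strand gene Dvl2, and reads of the pair may not be separable.

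The electron transfer genes, which pass electrons from the dehydrogenases to ubiquinone, differed in sign. Etfdh, the ubiquinone oxidoreductase, read 274, 178, 162, 172 and 151 CPM in wildtype chow and 160.4 to 303 CPM (median 251) in wildtype Western diet livers. Its highest chow value was again wildtype chow A. The log2 fold change was 0.38 ± 0.16, adjusted p = 0.218, and without the 4 libraries the groups did not overlap and Etfdh was called higher (0.59 ± 0.14, adjusted p = 0.00697). Etfb, the beta subunit of the flavoprotein, read 109, 119, 175, 179 and 107 CPM in chow and 87.4 to 156 CPM (median 107) in Western diet livers. It had a log2 fold change of -0.28 ± 0.13, adjusted p = 0.26 as labelled and was called lower without the 4 libraries (-0.39 ± 0.12, adjusted p = 0.034), with overlapping groups. Its partner subunit Etfa had -0.15 ± 0.086, adjusted p = 0.376, and was not called in either fit. In GENCODE M21, 58.2% of the exonic bases of Etfb are shared with the same-strand genes Gm45233 and Mir7051, so its count may depend on how shared reads were treated.

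In the later steps of the mitochondrial cycle, the trifunctional alpha subunit Hadha and the short-chain hydroxyacyl-CoA dehydrogenase Hadh were called higher without the 4 libraries (0.39 ± 0.12, adjusted p = 0.0379 and 0.50 ± 0.14, adjusted p = 0.0251) and not as labelled (0.32 ± 0.13, adjusted p = 0.188 and 0.40 ± 0.15, adjusted p = 0.162). Hadhb, which shares its promoter region with Hadha, had 0.19 ± 0.15, adjusted p = 0.533 as labelled and 0.35 ± 0.15, adjusted p = 0.126 without them. The enoyl-CoA hydratase Echs1 and Acaa2 had 0.11 ± 0.094 and 0.11 ± 0.080. The isomerases and reductases for unsaturated fatty acids, Eci1, Eci2, Decr1 and Decr2, had log2 fold changes of 0.20, 0.16, 0.23 and 0.22, and none was called in either fit.

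Of the 8 peroxisomal genes, Acaa1b had the largest log2 fold change of the 36 members in wildtype mice. It read 2057, 1214, 2045, 2054 and 674 CPM in chow and 1362 to 5235 CPM (median 2725) in Western diet livers, with overlapping groups. The log2 fold change was 0.90 ± 0.29, adjusted p = 0.102 as labelled and 1.02 ± 0.32, adjusted p = 0.0399 without the 4 libraries. Acaa1a read 299, 304, 347, 316 and 292 CPM and 263 to 464 CPM (median 333), with 0.14 ± 0.12, adjusted p = 0.609 and 0.13 ± 0.14, adjusted p = 0.618 in the same fits. The difference between the paralogs was not tested. The 674 CPM was that of wildtype chow E, which also had summed neutrophil markers of 22.2 CPM. Its mean over the acute phase genes described below was 8.49 log2 CPM, beside 8.53 in wildtype chow A and a wildtype chow median of 6.65. Without wildtype chow E the log2 fold change was 0.70 for Acaa1b, -0.025 for Ehhadh and 0.31 for Scp2. These were their lowest values with single libraries left out. The part of these levels was not tested.

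Scp2 read 3617, 2693, 2495, 2540.3 and 2395 CPM in wildtype chow and 2446 to 4172 CPM (median 3562) in wildtype Western diet livers, and the ranges parted once the 4 libraries were left out (0.35 ± 0.13, adjusted p = 0.159 as labelled, 0.50 ± 0.11, adjusted p = 0.00364 without them). The multifunctional enzyme Hsd17b4 read 618, 410.5, 451, 477 and 346 CPM in chow and 458 to 716 CPM (median 604) in Western diet livers and had 0.37 ± 0.13, adjusted p = 0.138 and 0.52 ± 0.12, adjusted p = 0.00631, and the branched-chain acyl-CoA oxidase Acox2, which acts on bile acid intermediates, 0.33 ± 0.13, adjusted p = 0.17 and 0.42 ± 0.13, adjusted p = 0.034. Ehhadh read 651, 197, 281, 248 and 107 CPM in wildtype chow, of which 651 CPM in wildtype chow A exceeded all 15 Western diet livers, at 192 to 569 CPM (median 339.7). Its log2 fold change was 0.19 ± 0.26, adjusted p = 0.757 as labelled and 0.72 ± 0.24, adjusted p = 0.0572 without the 4 libraries. The peroxisomal fatty acyl-CoA transporter Abcd3 and the peroxisome division factor Pex11a had 0.25 ± 0.16 and 0.19 ± 0.19 and were called in neither fit.

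The ketone body genes were not called in wildtype mice. Bdh1, the mitochondrial 3-hydroxybutyrate dehydrogenase, read 231, 259, 205, 279 and 207 CPM in chow and 198 to 393 CPM (median 354) in Western diet livers, with 0.40 ± 0.16, adjusted p = 0.181 as labelled and 0.42 ± 0.16, adjusted p = 0.086 without the 4 libraries. The acetoacetyl-CoA thiolase Acat1 had 0.18 ± 0.14, adjusted p = 0.523 and 0.32 ± 0.13, adjusted p = 0.13.

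**Figure D2:**
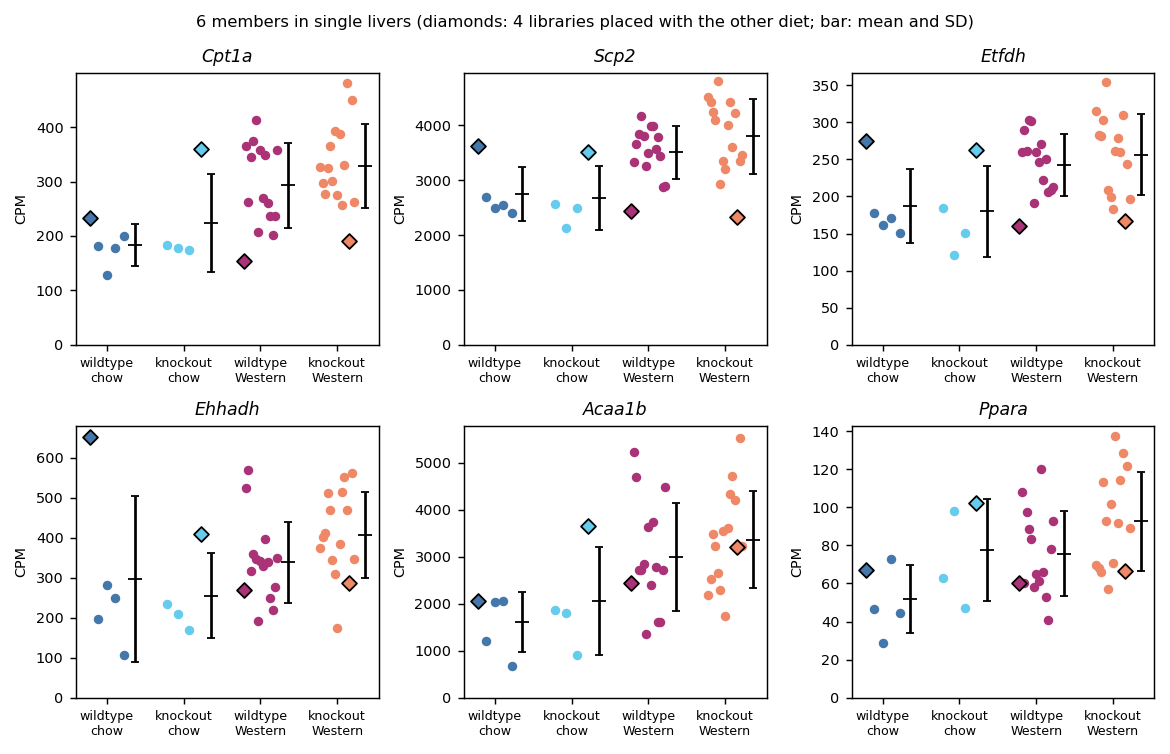
CPM of 6 members in every liver (points) by genotype and diet, with the mean and SD of each group (bars) and the 4 libraries that lay with the other diet as diamonds. In Cpt1a, Scp2 and Etfdh the diamonds carry most of the overlap between chow and Western diet; Ehhadh in wildtype chow A, at 651 CPM, is the highest of all livers, and Acaa1b and Ppara overlap between the diets also without the diamonds.

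In knockout mice no member passed as labelled either (0% of all genes were called higher and 0.00654% lower by edgeR). Of the 36 members, 35 were positive, with a median of 0.35 against -0.00048 over all genes, and 22 had an unadjusted p under 0.05 (61.1%, against 19.2% of all genes). DESeq2 called 1 member, beside 226 of 10266 genes, and limma voom 9, beside 820 of 15296 genes. All these members were higher, and the 1 of DESeq2 is near its share of all genes. Without the 4 libraries 22 members were called higher and 1 lower, beside 9.68% and 7.5% of all genes. The member counts were the same without all 5, beside 2584 of 15415 genes called in either direction. Knockout chow D alone decided much of this: leaving out that library gave 14 called members, and leaving out knockout Western diet M gave 1. Without knockout chow D the chow group holds 3 knockout livers. The calls over all genes in the fits without single libraries are not given here.

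Scp2 had the smallest p in both fits. It read 2559, 2134, 2502 and 3509.7 CPM in knockout chow A to D and 2329 to 4816 CPM (median 4006) in the 15 knockout Western diet livers; the highest chow value was knockout chow D and the lowest Western diet value knockout Western diet M, and without these the groups did not overlap. The log2 fold change was 0.51 ± 0.15, adjusted p = 0.116 as labelled and 0.73 ± 0.13, adjusted p = 2.64e-04 without the 4 libraries. Cpt1a read 184, 177, 174 and 359 CPM in knockout chow and 190.0 to 481 CPM (median 325) in knockout Western diet livers. Knockout chow D stood above the Western diet median, and without the 4 libraries the ranges parted (0.55 ± 0.21, adjusted p = 0.17 as labelled, 0.95 ± 0.20, adjusted p = 0.00164 without them).

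Called without the 4 libraries were Cpt1a and Slc25a20 of the 6 carnitine genes, all 5 acyl-CoA dehydrogenases, Etfdh of the electron transfer genes, Hadha, Hadhb, Hadh and Echs1 of the mitochondrial cycle, Decr1 and Decr2, the peroxisomal Abcd3, Acox2, Ehhadh, Hsd17b4, Acaa1b and Scp2, and both ketone body genes, all higher. Acads, the short-chain dehydrogenase, read 179, 103, 139.7 and 213 CPM in knockout chow and 167 to 270.2 CPM (median 215) in knockout Western diet livers, with knockout chow D the highest chow value. It had 0.42 ± 0.14, adjusted p = 0.132 as labelled and 0.64 ± 0.14, adjusted p = 0.00238 without them. Hadh read 278, 194, 237 and 394 CPM and 255 to 531 CPM (median 413.96), and Hsd17b4 read 446, 400.03, 416.8 and 649.9 CPM and 433.9 to 779.7 CPM (median 682), again with knockout chow D above the other chow livers. The log2 fold changes were 0.49 ± 0.17, adjusted p = 0.137 and 0.78 ± 0.17, adjusted p = 0.00199 for Hadh, and 0.42 ± 0.15, adjusted p = 0.143 and 0.66 ± 0.14, adjusted p = 0.00189 for Hsd17b4. Etfdh moved from 0.51 ± 0.18, adjusted p = 0.144 to 0.81 ± 0.16, adjusted p = 0.00104, Acad11 from 0.50 ± 0.19, adjusted p = 0.168 to 0.84 ± 0.19, adjusted p = 0.00337 and Hadha from 0.38 ± 0.14, adjusted p = 0.155 to 0.60 ± 0.14, adjusted p = 0.0034. Etfb was the member called lower (-0.28 ± 0.14, adjusted p = 0.26 as labelled, -0.43 ± 0.13, adjusted p = 0.0221 without them).

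Ehhadh read 233, 209, 169 and 409.5 CPM in knockout chow and 174 to 563 CPM (median 401.6) in knockout Western diet livers, a log2 fold change of 0.68 ± 0.30, adjusted p = 0.213 as labelled and 1.06 ± 0.28, adjusted p = 0.0103 without the 4 libraries. Acaa1b read 1873, 1801, 899 and 3650.0 CPM and 1729 to 5534 CPM (median 3226), with 0.71 ± 0.32, adjusted p = 0.221 and 1.17 ± 0.37, adjusted p = 0.0253. Both genes overlapped between the diets in either fit. Acaa1a had 0.11 ± 0.14, adjusted p = 0.678 and 0.18 ± 0.15, adjusted p = 0.44. Bdh1 read 288, 198, 188 and 356 CPM and 238 to 454 CPM (median 346), with 0.45 ± 0.17, adjusted p = 0.168 and 0.70 ± 0.18, adjusted p = 0.00781. Ppara had 0.25 ± 0.24, adjusted p = 0.573 and 0.47 ± 0.28, adjusted p = 0.244 and was not called. The 13 members not called without the 4 libraries were Ppara, Acsl1, Acsl5, Slc22a5, Cpt2, Crat, Crot, Etfa, Acaa2, Eci1, Eci2, Acaa1a and Pex11a, with adjusted p of 0.0623 to 0.6.

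**Figure D3:**
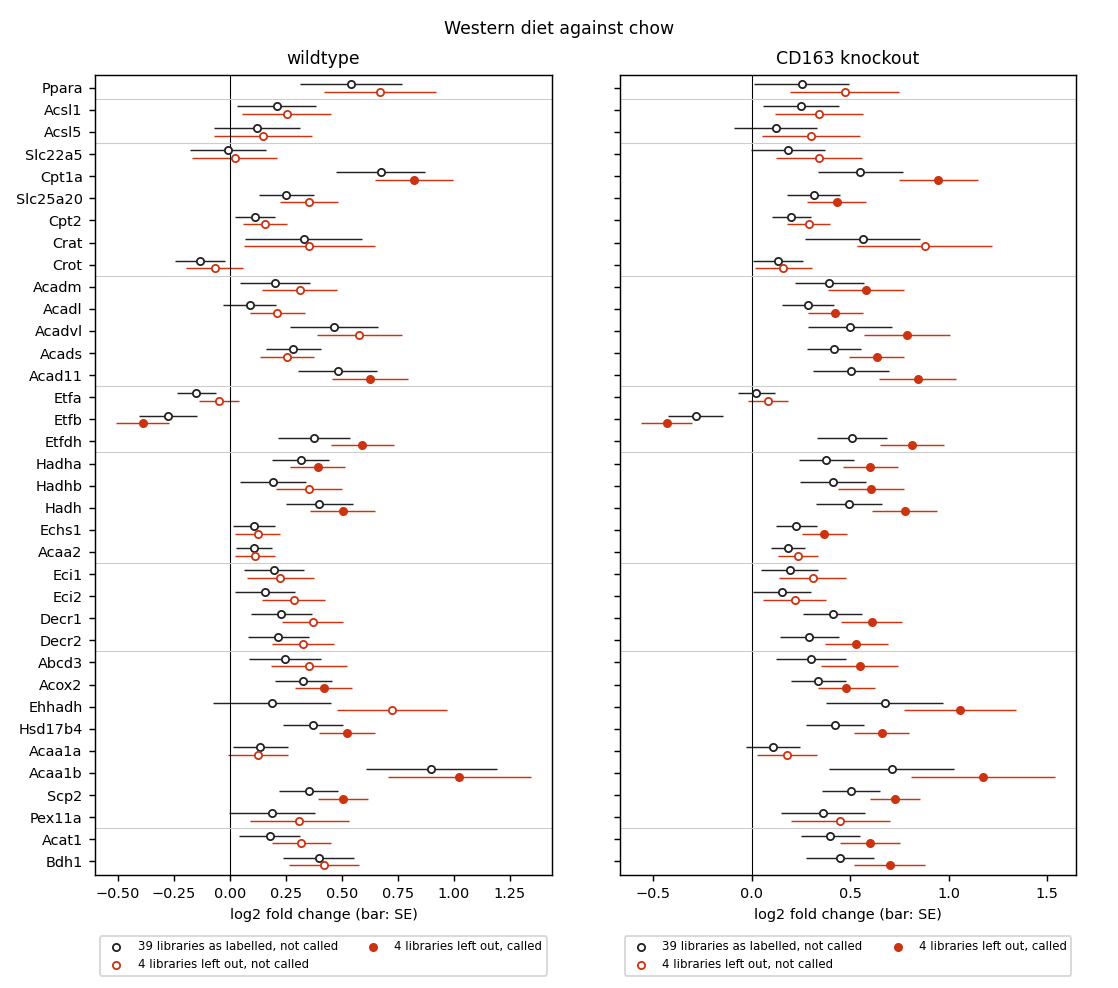
Log2 fold change between Western diet and chow (x axis; bars, SE) of each of the 36 members (y axis, by role) in wildtype (left) and knockout mice (right), with all 39 libraries as labelled (black) and without the 4 libraries that lay with the other diet (red); filled points passed an adjusted p of 0.05. No black point is filled, and 10 red points in wildtype and 23 in knockout mice are.

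The diet responses of the genotypes were compared directly. No member had a called difference, nor had any gene (0% of genes higher and 0% lower in edgeR, and no member by DESeq2 or limma voom; 0 of 36 members had an unadjusted p under 0.05). The difference, knockout minus wildtype response, was positive for 28 of 36 members with a median of 0.077 against 0.0031 over all genes, and for 33 with a median of 0.21 against 0.027 without the 4 libraries, where 1 of 36 had an unadjusted p under 0.05. The smallest p as labelled were those of Crot (0.27 ± 0.17), Etfa (0.17 ± 0.13), Ehhadh (0.48 ± 0.39) and Acat1 (0.22 ± 0.20). Crot averaged 518 ± 67.4 CPM (SD, n = 5) on chow and 472 ± 81.0 CPM (SD, n = 15) on Western diet in wildtype mice, and 459 ± 78.7 CPM (SD, n = 4) and 504 ± 68.8 CPM (SD, n = 15) in knockout mice. Etfa averaged 460.0 ± 94.0 CPM (SD, n = 5) and 414.6 ± 33.7 CPM (SD, n = 15) in wildtype, and 417.1 ± 13.5 CPM (SD, n = 4) and 424.1 ± 42.4 CPM (SD, n = 15) in knockout mice. For Acat1 the means were 394 ± 83.6 CPM (SD, n = 5) and 445 ± 78.7 CPM (SD, n = 15), and 366 ± 80.5 CPM (SD, n = 4) and 483 ± 75.7 CPM (SD, n = 15). These group means differed by less than the largest SD of the 4 groups for Crot and Etfa. For Cpt1a the difference was -0.12 ± 0.28, for Acaa1b -0.19 ± 0.41, for Acaa1a -0.027 ± 0.18, for Bdh1 0.051 ± 0.23 and for Ppara -0.29 ± 0.32; the signs for Cpt1a, Acaa1a and Acaa1b turned without the 4 libraries. More calls in the knockout than in the wildtype are therefore not a shown difference between genotypes.

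On the Western diet, loss of CD163 was not accompanied by a called change of any member, with edgeR, DESeq2 or limma voom (0% of all genes were called higher and 0.00654% lower). No member had an unadjusted p under 0.05. The log2 fold change between knockout and wildtype was positive for 32 of 36 members, between -0.060 and 0.29, with a median of 0.097 against 0.0091 over all genes, of which 53.5% were positive. The members share livers and vary together, so that their common sign is not 36 separate observations. In the same comparison Cidec, a lipid droplet gene, had a log2 fold change of 0.89, and 23 of 24 acute phase genes were negative with a median of -0.45, none of them called; their part in the members' values was not tested.

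Ppara had the smallest p: it read 40.7 to 120.2 CPM (median 65.8) in wildtype and 56.9 to 137 CPM (median 91.9) in knockout Western diet livers, with means of 75.5 ± 22.3 CPM (SD, n = 15) and 92.5 ± 25.9 CPM (SD, n = 15). The groups overlapped over most of their range, and the log2 fold change was 0.29 ± 0.15, adjusted p = 0.943. Bdh1 read 198 to 393 CPM (median 354) and 238 to 454 CPM (median 346), a log2 fold change of 0.18 ± 0.11, adjusted p = 0.943. The dienoyl-CoA reductase Decr1 read 135 to 243 CPM (median 212) and 155 to 259 CPM (median 231) (0.15 ± 0.095, adjusted p = 0.943), and the long-chain dehydrogenase Acadl 146 to 268 CPM (median 213) and 153 to 263 CPM (median 229) (0.12 ± 0.084, adjusted p = 0.956). For Cpt1a the wildtype livers averaged 293 ± 77.8 CPM (SD, n = 15) and the knockout livers 328 ± 77.0 CPM (SD, n = 15), within one SD of each other (0.16 ± 0.13, adjusted p = 0.959). The values were 0.27 ± 0.18, adjusted p = 0.959 for Ehhadh, 0.079 ± 0.087, adjusted p = 0.963 for Acaa1a and 0.16 ± 0.20, adjusted p = 0.966 for Acaa1b. The 4 members with negative values were Cpt2, Etfb, Hadha and Acox2, at -0.057 for Etfb, -0.060 for Hadha, -0.043 for Acox2 and -0.025 for Cpt2. Without the 4 libraries the count stayed at 0 (0% of all genes called higher and 0.00647% lower) and the smallest adjusted p was 0.831.

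On chow, no member was called between genotypes (0% of all genes higher and 0.00654% lower; DESeq2 and limma voom also called 0 members). With 4 knockout and 5 wildtype livers, 15 of 36 members were positive and the median was -0.028. Ppara read 67.2, 46.5, 28.9, 72.8 and 44.2 CPM in wildtype and 62.9, 98.0, 47.3 and 102 CPM in knockout chow livers, a log2 fold change of 0.58 ± 0.28, adjusted p = 1, and was the only member with an unadjusted p under 0.05 (0.0477). Etfa (-0.14 ± 0.11), Crot (-0.17 ± 0.15) and Cpt1a (0.28 ± 0.25) followed. The values were -0.22 ± 0.34 for Ehhadh, 0.11 ± 0.16 for Acaa1a, 0.35 ± 0.36 for Acaa1b and 0.12 ± 0.20 for Bdh1. Knockout chow D held the highest Cpt1a, Acaa1b and Bdh1 value of the 9 chow livers. Without the 4 libraries 5 of 36 members were positive, with a median of -0.11, and none was called (0% of all genes higher and 0.00647% lower).

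**Figure D4:**
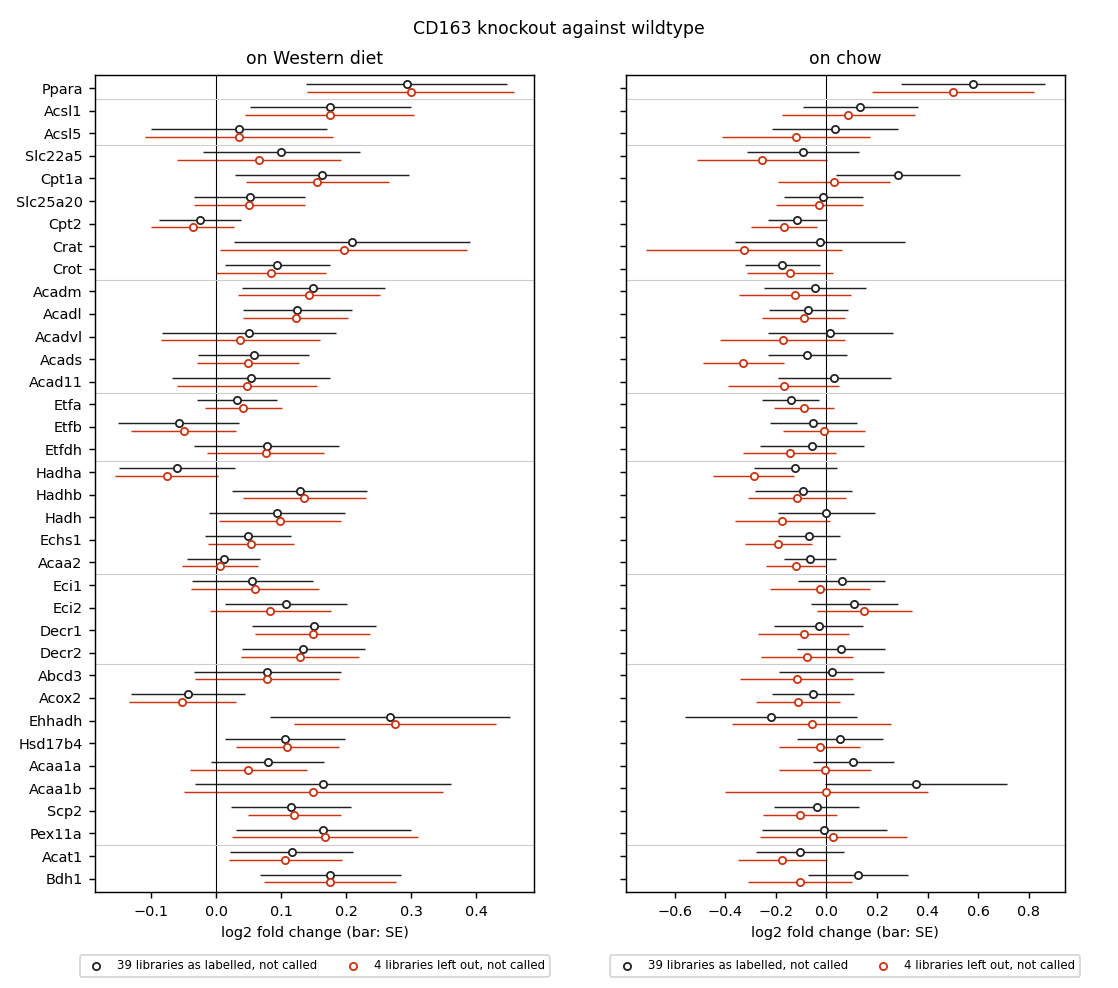
Log2 fold change between knockout and wildtype (x axis; bars, SE) of each of the 36 members (y axis, by role) on Western diet (left) and on chow (right), with all libraries as labelled (black) and without the 4 libraries that lay with the other diet (red). No point is filled, since no member passed an adjusted p of 0.05 in either fit; Ppara has the largest value on both diets.

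Over the 30 single Western diet livers, members were set against the level of Cidec, which encodes a lipid droplet protein that promotes droplet fusion in fatty liver, in a fit with genotype as a term. Both quantities come from the same libraries and share their depth and scaling. Cidec was chosen as a level with earlier results of these data known, so the p-values of its slopes are not independent evidence. Cidec ranged from 2.21 to 6.69 log2 CPM. In this fit 17 of 36 members rose with Cidec and none fell, beside 4.43% of all 13790 genes tested called higher and 3.04% lower. The median slope was 0.11 per log2 unit of Cidec, against -0.0033 over all genes. The 17 were Acsl1, Acsl5, Cpt1a, Slc25a20, Crat, Acadm, Acadl, Hadhb, Hadh, Eci1, Decr1, Decr2, Ehhadh, Hsd17b4, Acaa1b, Pex11a and Bdh1.

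Crat, which buffers acetyl-CoA as acetylcarnitine, had the steepest slope, 0.32 ± 0.056, adjusted p = 4.87e-04. Across the wildtype Western diet livers it read 30.9 to 105 CPM (median 63.4) and across the knockout livers 26.4 to 124 CPM (median 68.6); it was 35.3 CPM in wildtype Western diet G, the liver lowest in Cidec, and 124 CPM in knockout Western diet N, the highest. Its 4 lowest values were in knockout Western diet H and wildtype Western diet G, L and M, which also had the 4 lowest Acaa1b values. Acaa1b, at 1362 and 5534 CPM in the same livers, had a slope of 0.29 ± 0.057, adjusted p = 0.00149. Pex11a read 57.5 to 151 CPM (median 113) in wildtype and 68.7 to 200.5 CPM (median 121) in knockout livers (0.23 ± 0.045, adjusted p = 0.00139), and Slc25a20 110.4 to 191 CPM (median 161) and 110.1 to 191 CPM (median 165) (0.14 ± 0.028, adjusted p = 0.00153). Acadm, Decr1, Eci1 and Decr2 had slopes of 0.17 ± 0.039, adjusted p = 0.00625, 0.13 ± 0.031, adjusted p = 0.00662, 0.13 ± 0.031, adjusted p = 0.00774 and 0.14 ± 0.034, adjusted p = 0.0116. The slope was 0.18 ± 0.048, adjusted p = 0.0175 for Cpt1a, 0.21 ± 0.054, adjusted p = 0.0167 for Ehhadh and 0.14 ± 0.040, adjusted p = 0.0247 for Bdh1; Acaa1a (0.10 ± 0.034, adjusted p = 0.0621) and Ppara (0.10 ± 0.062, adjusted p = 0.322) were not called.

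The 15 wildtype livers alone gave 20 called members, all higher, and the 15 knockout livers alone gave 0, with medians of 0.19 and 0.053. Over all genes, 904 of 12620 were called in the wildtype and 20 of 12455 in the knockout livers, so that a count of 0 among 36 members is near the share of all genes called there; the difference of the slopes between genotypes was not tested. Without knockout Western diet N and F, the livers farthest from the median Cidec level, 20 members were called, beside 822 of 13727 genes. Without the 2 Western diet libraries that lay with chow 13 were (5.99% of all genes higher and 4.79% lower). Without the 3 taken by the sterol level alone the count was 12, beside 1269 of 13710 genes called in either direction. Wildtype Western diet A and knockout Western diet M, the libraries that lay with chow, were among the 4 livers lowest in Cidec. In the fit of all 30 libraries 6 of 24 acute phase genes fell with Cidec, and 1 of 10 sinusoidal endothelial and 3 of 10 stellate cell markers rose. Of all genes, 3.04% were called lower and 4.43% higher in that fit. The summed white fat markers, whose list holds the lipid droplet gene Plin1, were 15.1 CPM in wildtype Western diet G and 132 CPM in knockout Western diet N; the part of these lists in the slopes was not tested.

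The second level was the mean of 24 acute phase genes, secreted liver proteins and their companions that rise in inflammation. This level, too, was chosen with earlier results of these data known. It ranged from 6.12 to 9.86 log2 CPM, and 8 members fell with it while none rose, beside 6.39% of all genes called lower and 7.45% higher. The median slope was -0.075 per log2 unit, against -0.0043 over all genes. Acaa1b, at 1362 to 5235 CPM (median 2725) in wildtype and 1729 to 5534 CPM (median 3226) in knockout livers, had the steepest slope, -0.36 ± 0.074, adjusted p = 0.00124. Eci1 read 129 to 262 CPM (median 206) in wildtype and 148 to 273 CPM (median 210.4) in knockout livers, and Acsl5 193 to 707 CPM (median 347) and 220.4 to 506 CPM (median 348). The lowest Eci1 value of the 30 was that of wildtype Western diet G. The others were Eci1 (-0.17 ± 0.037, adjusted p = 0.00248), Acsl5 (-0.25 ± 0.062, adjusted p = 0.00722), Etfa (-0.086 ± 0.023, adjusted p = 0.013), Ehhadh (-0.23 ± 0.066, adjusted p = 0.0212), Bdh1 (-0.17 ± 0.049, adjusted p = 0.0214), Decr2 (-0.14 ± 0.044, adjusted p = 0.0275) and Acadl (-0.12 ± 0.040, adjusted p = 0.0371). Not called were Cpt1a (-0.060 ± 0.071, adjusted p = 0.618), Acaa1a (-0.11 ± 0.044, adjusted p = 0.0816) and Ppara (-0.19 ± 0.069, adjusted p = 0.0595).

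These slopes rested on few livers. Wildtype Western diet G, M and L had the highest acute phase levels (9.86, 9.12 and 9.10), and their Acaa1b values of 1362, 1609 and 1617 CPM were the lowest of the 30. They were also low in Cidec (2.21, 2.97 and 3.09 log2 CPM), so that the 2 levels cannot be told apart at these livers. The next highest acute phase levels were 8.83 in knockout Western diet E, 8.61 in wildtype Western diet F and 8.37 in wildtype Western diet N. Acaa1b read 2661, 2854 and 2725 CPM there. Without G and M, the livers farthest from the median level, 1 member was called, beside 759 of 13762 genes, so that this count is not above the share of all genes. L and M were the most alike of all pairs of libraries (a chi-square of 3.71 per gene; the second closest pair had 9.49 and the median pair 54.9); summed to 1 library, they left 5 called members. Wildtype livers alone gave 7 called members and knockout livers alone 0, and this difference was not tested. Over all genes the counts were 926 of 12620 and 163 of 12455, so that the 0 in the knockout is near the share of all genes. Without the 2 Western diet libraries that lay with chow 12 members were called, all lower (5.6% of all genes lower and 7.32% higher). Without the 3 taken by the sterol level alone 10 were, beside 1584 of 13710 genes called in either direction. In wildtype Western diet G the summed neutrophil markers were 40.0 CPM, the highest of the 39 libraries, and the summed hepatocyte markers 50775 CPM; their part was not tested.

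**Figure D5:**
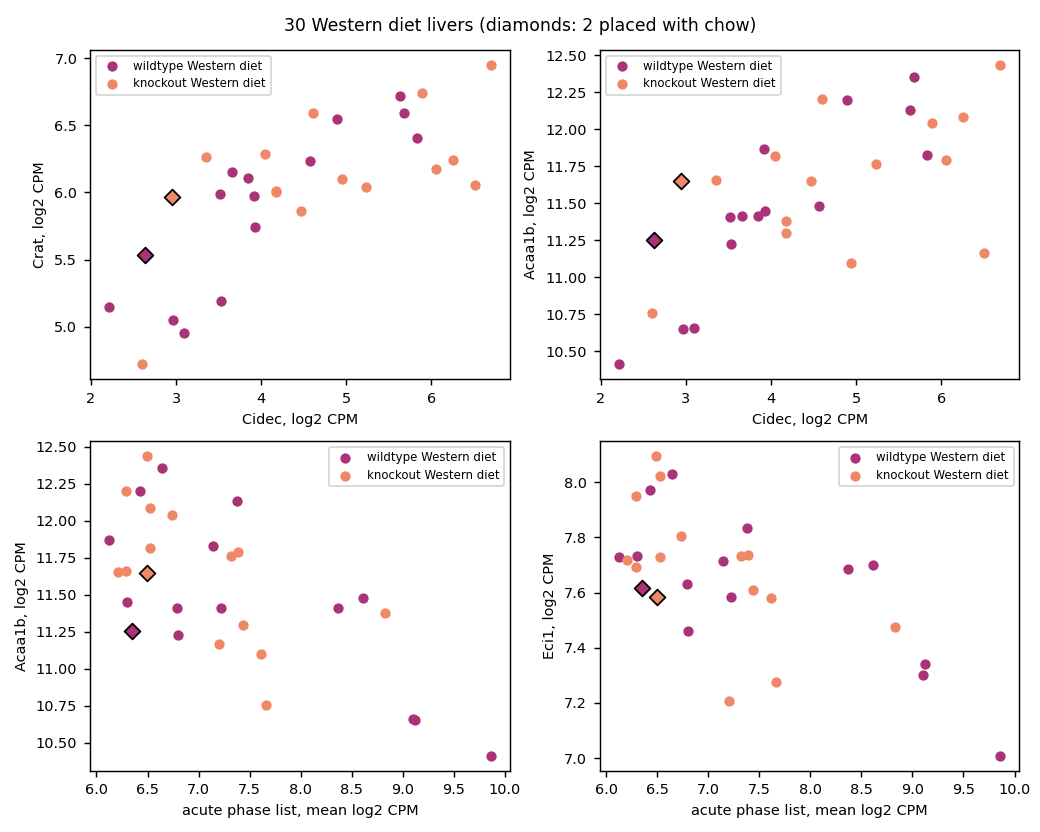
Crat and Acaa1b against Cidec (top) and Acaa1b and Eci1 against the acute phase mean (bottom) in the 30 Western diet livers, all in log2 CPM, by genotype; diamonds are the 2 libraries that lay with chow. Knockout Western diet H and wildtype Western diet G, L and M hold the 4 lowest values of both Crat and Acaa1b, and wildtype Western diet G, L and M lie farthest to the right in the lower panels.

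Other genes of the pathway were counted from lists beside the members. Of 36 further fatty acid oxidation genes, none was called for diet or genotype as labelled. Without the 4 libraries 8 were higher and none lower in wildtype mice, led by the very long-chain acyl-CoA synthetase Slc27a2 (0.76 ± 0.13, adjusted p = 1.27e-04) and the peroxisomal protease Lonp2 (0.50 ± 0.11, adjusted p = 0.00243), and 14 were higher and 1 lower in knockout mice, again with Slc27a2 (0.77 ± 0.14, adjusted p = 5.11e-04) and Lonp2 (0.54 ± 0.12, adjusted p = 0.00239); the lists also hold Acaca, the acetyl-CoA carboxylase of fatty acid synthesis, and the propionyl-CoA carboxylase subunits Pcca and Pccb, which were among the genes called higher in both genotypes. The 1 lower was Nudt7, a peroxisomal CoA hydrolase (-0.85 ± 0.21, adjusted p = 0.00601). Of 25 tested PPARA partners and targets, Creb3l3, a liver transcription factor of fasting metabolism, was the 1 called as labelled, higher in wildtype mice on Western diet (0.30 ± 0.079, adjusted p = 0.0476; 318 ± 7.08 CPM on chow and 389.8 ± 39.7 CPM on Western diet, SD, n = 5 and 15). Creb3l3 and the fatty aldehyde dehydrogenase Aldh3a2 were higher in wildtype mice without the 4 libraries (0.31 ± 0.081, adjusted p = 0.0158 and 1.16 ± 0.31, adjusted p = 0.0149). In knockout mice, in the same fit, Vnn1, a pantetheinase (2.17 ± 0.67, adjusted p = 0.0252), Aldh3a2 (1.45 ± 0.35, adjusted p = 0.00572), Hsdl2, which is also on the oxidation list (0.52 ± 0.15, adjusted p = 0.0152), and Creb3l3 (0.27 ± 0.091, adjusted p = 0.04) were higher, and none of the list was lower in either genotype. Of the 6 other ketone body genes none was called as labelled, and without the 4 libraries the cytosolic dehydrogenase Bdh2 was lower in both genotypes (-0.62 ± 0.17, adjusted p = 0.0195 and -0.70 ± 0.19, adjusted p = 0.0108) and the monocarboxylate transporter Slc16a1, which carries ketone bodies, was higher in knockout mice (0.63 ± 0.17, adjusted p = 0.00925). Of 19 peroxisome assembly genes none was called as labelled, and 1 and 5 were higher without the 4 libraries in wildtype and knockout mice. Of all genes, 4.26% were called higher and 4.4% lower in the wildtype fit without the 4 libraries, which the 1 of 19 assembly genes is near, and 9.68% and 7.5% in the knockout fit. The median log2 fold changes as labelled were 0.18 and 0.13 for the oxidation list and 0.11 and 0.15 for the assembly list in wildtype and knockout mice.

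With Cidec, 4.43% of all genes were called higher and 3.04% lower. Beside this, 7 of 25 PPARA partners and targets rose and none fell, led by the fatty aldehyde dehydrogenase Aldh3a2 (0.37 ± 0.055, adjusted p = 5.26e-05), the mitochondrial thioesterase Acot2 (0.58 ± 0.091, adjusted p = 1.53e-04) and the pantetheinase Vnn1 (0.61 ± 0.10, adjusted p = 4.19e-04). Of the 36 further oxidation genes 5 rose, among them the peroxisomal transporter Abcd2 (0.73 ± 0.14, adjusted p = 0.00138), and Nudt7 fell (-0.18 ± 0.047, adjusted p = 0.0182). Abcd2 was low, with means of 1.61 and 2.12 CPM in wildtype and knockout Western diet livers. A single gene that falls is near the share of all genes called lower. Of the assembly genes Pex19 (0.14 ± 0.029, adjusted p = 0.00273), Pex14 and Pex16 rose with Cidec. Of the other ketone body genes the transporter Slc16a7 rose (0.39 ± 0.063, adjusted p = 1.78e-04). None of these 2 lists was called lower. With the acute phase level, 6.39% of all genes were called lower and 7.45% higher. Beside this, 4 PPARA partners and targets fell, led by the fatty acid binding protein Fabp1 (-0.35 ± 0.051, adjusted p = 1.14e-05) and the pyruvate dehydrogenase kinase Pdk4 (-0.80 ± 0.16, adjusted p = 0.00101). The receptor partner Rxra rose (0.14 ± 0.047, adjusted p = 0.0443), though Rxra was not called without the 2 Western diet libraries that lay with chow. Of the further oxidation genes 5 fell and none rose, and of the assembly genes 3 fell, with Pex16 first (-0.22 ± 0.044, adjusted p = 8.15e-04). Of the other ketone body genes Aacs fell (-0.42 ± 0.14, adjusted p = 0.0377) and none rose.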

How the data were processed

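Raw gene counts of 39 mouse liver libraries were deposited by the authors as 1 table. Per the labels' protocols, paired-end libraries were made with the NEBNext Ultra RNA kit and sequenced on a NovaSeq instrument. Per the submitters' processing notes, STAR 2.7.8a and featureCounts 2.0 were used with GRCm39, with FastQC and MultiQC reports; annotation release, strand setting and treatment of shared reads are not given in the sources used here. Symbols were found for 52083 of 55416 gene IDs, with 99.4% of the counts. The 37 mitochondrial genome genes have a count of 0 in all libraries. Groups follow the labels, and the labels give replicate letters.

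Counts were fitted with edgeR 4.0.16 (R 4.3.3; TMM, filterByExpr by group with a minimum count of 10, robust quasi-likelihood test, all 39 libraries), with Benjamini-Hochberg adjustment over all genes tested and a threshold of 0.05. SE is the fold change divided by the square root of F. Slopes used the 30 Western diet libraries with genotype as a term and log2 CPM with a prior count of 2. CPM values are scaled by TMM. The fits were checked on simulated counts. Alternatives were RLE scaling, DESeq2 1.42.0, limma 3.58.1 voom with sample weights, no filter, a replicate block by letter, library number as a covariate, fits of the compared groups alone, leaving out each library, and, added after seeing the data, the libraries that lay with the other diet left out (4 by both measures, 5 by the sterol level alone) and wildtype Western diet L and M summed. Lengths, overlaps and transcripts are from GENCODE M21 (GRCm38), using the longest principal transcript per gene, and promoters from RefSeq (GRCm38.p6); no coordinates were converted. The members, the lists and the Cidec and acute phase levels of the slopes were chosen with earlier results of these data known. Named members are those called (at most 8 by p, or the 4 with the smallest p where fewer than 4 were called) and 6 fixed ones (Ppara, Cpt1a, Ehhadh, Acaa1a, Acaa1b and Bdh1); of other lists, at most 4 called genes. Acaca, Pccb, Rxra and, for diet, Nudt7 were named after their values were seen. The labels do not state that each library is a separate mouse; otherwise p-values measure only the spread between libraries. Some genes of these pathways are not reported here.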

Additional observations from a re-analysis of the deposited data

Results flagged for a closer look

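Within each chow group, 72 sets of 4 or 5 values (36 members in 2 groups) were examined for 1 value far from the others by Dixon's test at 95%, which by chance marks about 1 in 20 sets, and 4 values stood apart. Cpt1a in knockout chow D was 359 CPM, with the other 3 livers at 174 to 184 CPM. Decr2 in knockout chow D was 287 CPM, with the others at 172 to 191 CPM. Etfdh in wildtype chow A was 274 CPM, with the other 4 at 151 to 178 CPM. Scp2 in wildtype chow A was 3617 CPM, with the others at 2395 to 2693 CPM. These are the 2 chow libraries that lay with the Western diet by their sterol synthesis level.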

How the results depend on the processing

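The counts of called members for genotype on either diet and for the difference of the diet responses were 0 under every alternative run, including each of 39 libraries left out. For diet, the count in wildtype mice was 0 as labelled, 2 with DESeq2, 8 with voom, 10 without the 4 libraries and 8 without 5, and ranged from 0 to 2 with 1 library left out; in knockout mice it was 0 as labelled, 1, 9, 23 and 23, and ranged from 0 to 14. Calls over all genes moved too. In wildtype mice they were 212 as labelled, 518 with DESeq2, 1045 with voom, 1339 without 4 libraries and 1140 without 5. In knockout mice they were 1, 226, 820, 2656 and 2584 in the same order. The count of members stayed at 0 in both genotypes with RLE scaling, no filter, the library number, only the groups compared, L and M summed, and the replicate block. Same-letter libraries did not deviate together on average (mean correlation -0.010 over 15 letters between the Western diet groups, range -0.32 to 0.38). Letters were not used as pairs in the main fits. A low mean correlation cannot show that letters carry no pairing. For the acute phase slope the count was 8 as reported, 22 with voom, 5 without a filter, 0 in the knockout alone, 1 without the 2 farthest livers and 5 with L and M summed. Over all genes 1908 of 13790 were called as reported, 3161 of 13790 with voom and 1843 of 34780 without a filter. The other fits called 163 of 12455, 759 of 13762 and 1418 of 13908 genes, in the same order. For the Cidec slope the count of members was 17, and 0 in the knockout alone, beside 1030 of 13790 and 20 of 12455 genes.

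Signs turned for values that were not called. On chow, knockout against wildtype, Ehhadh was 0.035 with voom, and without the 4 libraries Acaa1a was -0.0044, Acaa1b -9.7e-05 and Bdh1 -0.10 (-0.097 without 5). For the difference of the diet responses, Acaa1a was 0.095 and Acaa1b 0.014 with voom, and Acaa1a 0.0075 with the library number; without 4 and 5 libraries Cpt1a was 0.13 and 0.10, Acaa1a 0.054 and 0.051, and Acaa1b 0.15 and 0.21. The acute phase slope of Cpt1a was 0.020 in the knockout alone and 0.027 without the 2 farthest livers. With 1 library left out, log2 fold changes on chow between genotypes spanned Cpt1a -0.061 to 0.39, Acads -0.27 to 0.088, Hadha -0.32 to 0.025, Echs1 -0.19 to 0.020, Ehhadh -0.56 to 0.29, Acaa1b -0.10 to 0.60, Bdh1 -0.090 to 0.25; the diet response of Ehhadh in wildtype mice spanned -0.025 to 0.70; and differences of the responses spanned Ehhadh -0.027 to 0.83, Acads -0.033 to 0.32, Cpt1a -0.23 to 0.22, Acaa1a -0.11 to 0.059, Acaa1b -0.44 to 0.26, Bdh1 -0.076 to 0.26. The cause of these changes was not tested, apart from the fewer libraries in each such fit. The chow groups hold 4 and 5 livers, of which 2 lay with the Western diet; no alternative of depth was run.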
